A study of Mus musculus with 24 samples.

Results

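Accessible chromatin was examined at 10 regulator genes of endoderm and mesoderm in mouse embryonic stem cells. They were chosen by name (Gata4, Gata6, Sox17, Sox7, Foxa2, T, Eomes, Mixl1, Gsc and Mesp1) from the 55413 genes of the GENCODE vM21 annotation, 21911 of which are protein-coding. For each gene the promoter was taken as 1 kb either side of every start in the basic annotation, and the neighbourhood as the gene body with 50 kb either side. The measurements are lists of ATAC-seq peaks. In ATAC-seq the Tn5 transposase cuts accessible chromatin and leaves adapters at the cuts, and a peak is a stretch where such cuts pile up above background.

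The 24 libraries came from E14, an established mouse embryonic stem cell line, and form 12 groups of 2. All 24 carry the CTCF AID genotype. AID is the auxin-inducible degron, a tag that lets the plant hormone auxin (IAA) trigger destruction of the tagged protein, and CTCF is the zinc finger protein that binds insulator sites and anchors chromatin loops. In serum-free medium (with leukemia inhibitory factor and the inhibitors PD0325901 and CHIR99021), a control overexpression line was sampled without IAA and after 12 hours of IAA. Lines overexpressing wild type CTCF and mutated CTCF were sampled after 12 hours of IAA only, and the labels do not say what the mutation changes. A Chd4 set and a Chd8 set, both without IAA, each hold shluci, shRNA1 and shRNA2 libraries. Chd4 and Chd8 are chromatin remodelling ATPases. Per the series' design text, the study asked how open chromatin responds to loss of CTCF or to knockdown of Chd4 or Chd8. Peak lists cannot show how far any of these proteins was depleted. The last set, labelled as grown in serum, was sampled without IAA and after 12 hours of IAA. The growth protocol names the serum-free medium for these libraries as well. Nothing in the labels says whether replicates were separate cultures, so spreads between the 2 libraries of a group may be technical.

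The sets differed in the peaks they hold. The 8 libraries of the control and overexpression lines listed 120137 to 155087 peaks, the Chd4 set 80619 to 141742, the Chd8 set 135410 to 166697 and the serum set 59786 to 82502. The median peak was 283 to 456 bp long in the first and 75 to 138 bp in the Chd8 set. Within each set, every list was therefore reduced to the length of its shortest list, keeping the peaks of lowest p-value. A peak's percentile below is its rank by p-value in the reduced list, where 100 is the strongest peak and 0 stands for no peak. Of 7 stem cell markers, 2 to 6 had a promoter peak per library (median 6), Dppa3 in only 1 of the 24. Of 5 fibroblast markers 2 to 5 had one, of 5 trophoblast markers 1 to 5, and of 4 neural markers 1 to 4. An open promoter is not expression, and the share of any other cell type in these cultures was not tested.

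These genes switch on when stem cells leave pluripotency. Signals of the Nodal and Wnt pathways induce the T-box factors T (Brachyury) and Eomes and the homeobox factors Mixl1 and Gsc in the primitive streak, and Mesp1 marks the earliest cardiac mesoderm. Gata4, Gata6, Sox17, Sox7 and Foxa2 direct the endoderm, and Gata6 also specifies primitive endoderm in the blastocyst. In undifferentiated stem cells many such promoters are rich in CpG and held in a poised state with little transcription.

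Sites for CTCF itself were located as matches to the CTCF consensus, a motif of 14 letters searched under that name on both strands with at most 1 mismatch. To compare libraries, 501 bp windows were centred on peak summits, and the 233754 windows with a peak in 2 or more libraries were retained. The consensus lay in 5.56% of all windows and in 8 of the 199 windows of these neighbourhoods. Both control libraries without IAA called 6 of the 8. They are printed 5′ to 3′ on the strand of the match, from GRCm38, with the match in capitals, because the calls at sites of like sequence went different ways:
Gsc downstream site, chr12:104427160-104427213, minus strand: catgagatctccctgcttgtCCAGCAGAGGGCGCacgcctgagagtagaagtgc
T downstream site, chr17:8468870-8468923, plus strand: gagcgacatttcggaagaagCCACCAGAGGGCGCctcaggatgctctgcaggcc
Eomes downstream site, chr9:118489831-118489884, minus strand: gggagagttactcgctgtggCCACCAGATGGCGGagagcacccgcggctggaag
Mesp1 downstream site, chr7:79780688-79780741, plus strand: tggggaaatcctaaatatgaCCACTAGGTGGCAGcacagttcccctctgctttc
Eomes coding site, chr9:118479216-118479269, minus strand: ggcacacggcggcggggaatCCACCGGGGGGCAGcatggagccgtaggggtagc
Mesp1 intron site, chr7:79792798-79792851, plus strand: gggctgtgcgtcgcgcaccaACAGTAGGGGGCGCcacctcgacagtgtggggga
The first 4 match the consensus without a mismatch and the last 2 with 1 mismatch. The windows of the first and second lost their peak with IAA, and those of the other 4 were called by both control IAA libraries. That is 2 of 6 lost, against 34.9% of all consensus windows that both control libraries without IAA called.

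The Gsc downstream site lies in a window 46229 bp downstream of the Gsc start, between genes. Gsc encodes the goosecoid homeobox factor of the organizer. Its percentiles were 81.7 and 80.5 in the control line without IAA and 0 in both IAA libraries. In serum they were 69.2 and 75.1 without IAA and 0 in both IAA libraries, so every one of the 4 libraries without IAA held the peak and every one of the 4 with IAA lacked it. With wild type CTCF overexpressed under IAA they were 62.1 and 68.2, and with mutated CTCF 56.6 and 58.3. Both overexpressing lines thus held the peak that the control line lacked under the same treatment, at lower ranks than in the control line without IAA. In the Chd8 set both shluci and both shRNA1 libraries called it and no shRNA2 library did. No library of the Chd4 set called it.

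The T downstream site lies 34528 bp from the T start, also between genes. T encodes Brachyury, the T-box factor of nascent mesoderm. The window stood at 39.1 and 58.8 without IAA and at 0 in both IAA libraries of the control line, and returned at 56.0 and 16.1 with wild type CTCF and at 25.3 and 52.8 with mutated CTCF. In serum both libraries without IAA called it and 1 of 2 did with IAA. A second window, 32480 bp from the T start and without the consensus, showed the reverse pattern. It was called in the control line with IAA (12.5 and 27.6) and in serum with IAA (2.2 and 32.1), and in neither group without IAA in those media. The Chd4 and Chd8 sets, also without IAA, held it in 6 of their 12 libraries, among them both Chd8 shluci libraries. No wild type CTCF library called it and 1 mutated CTCF library did.

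The map of these windows by group shows the lost and the kept consensus windows side by side.

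**Figure D1:**
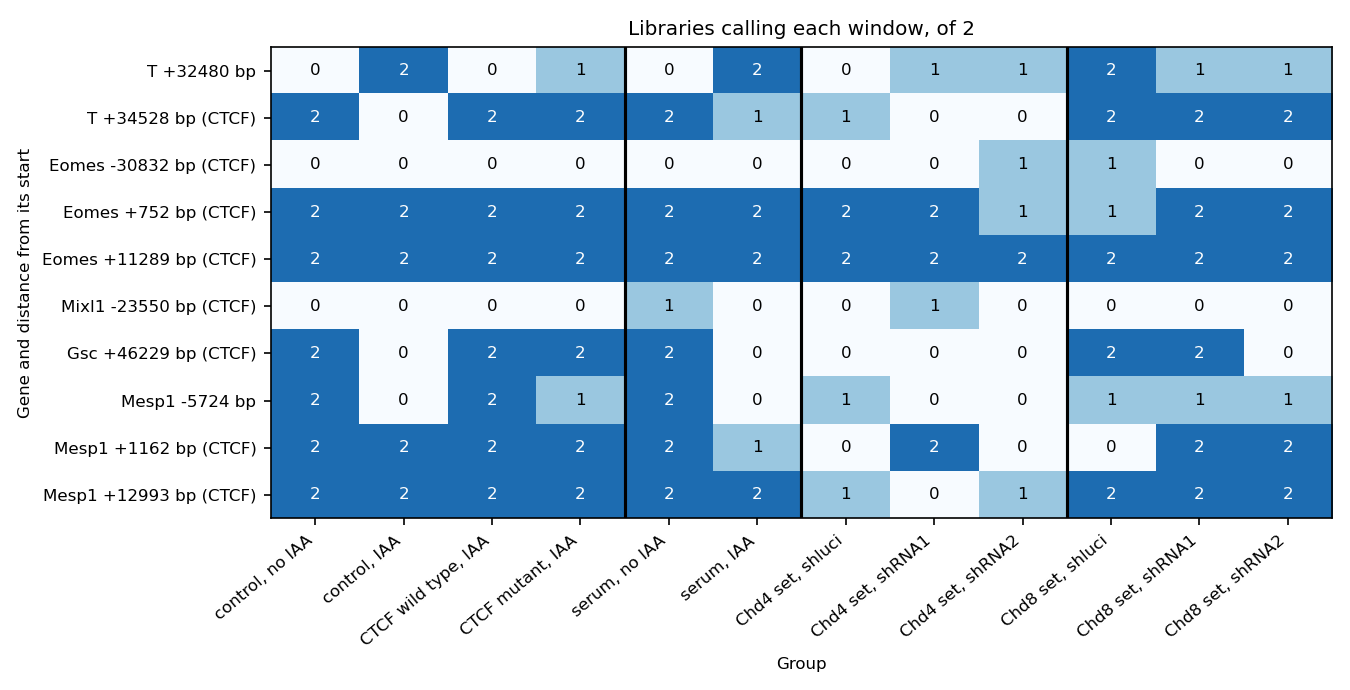
Number of libraries, of 2, that called each window (rows: gene and distance of the window from its start; columns: the 12 groups), for windows with the CTCF consensus and for those that followed IAA in both media. The Gsc window at +46229 bp and the T window at +34528 bp read 2 without IAA, 0 with IAA in the control line and 2 in both overexpressing lines, while the Eomes window at +11289 bp reads 2 in every group.

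The 4 consensus windows that kept their calls in the control line are near Eomes and Mesp1. A window was called when any peak overlapped it, so a kept call need not cover the match. In the order given below, the matches lay at 225, 147, -80 and 199 bp from the window centres. The Eomes window 11289 bp downstream of the start, at the promoter of the noncoding gene Gm33460, was called by all 24 libraries. The Eomes coding site lies in a window 752 bp from the start and was called by every library of the control, overexpression and serum groups. The Mesp1 window 12993 bp downstream of the start lies in an intron of another gene and was likewise called by all of those 12 libraries. The Mesp1 intron window, 1162 bp from the start, was called by both libraries of each of those groups except serum with IAA, where 1 of 2 called it.

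Promoter peaks were found for all 10 genes, in different numbers of libraries. Foxa2 and Mixl1 had one in all 24 libraries, Eomes in 22, Gata4 and Gata6 in 20, Sox17 and Mesp1 in 17, Sox7 in 15, and T and Gsc in 14. In both libraries of a group, 9 genes had a peak in the control line without IAA, 9 with IAA, 9 with wild type CTCF and 10 with mutated CTCF. All protein-coding genes gave 68.7%, 68.9%, 68.1% and 68.7% in those groups. In the Chd4 set the numbers were 4 with shluci, 5 with shRNA1 and 3 with shRNA2, against 48.9%, 39.2% and 32.6% of all protein-coding genes. In the Chd8 set they were 4, 7 and 6, against 59.1%, 58.5% and 62.2%. A promoter's percentile is that of the strongest peak overlapping the span of 1 kb either side of a start. It need not come from the same peak in each library, and the summit can lie outside the span. For Eomes the median summit lay 1028 bp downstream of the start.

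In the 8 libraries of the control and overexpression lines, the promoters fell in a wide order. Foxa2, a forkhead factor of endoderm and midline, had the highest median percentile, 81.8 (range 76.1 to 87.9). Mixl1, a homeobox factor of the primitive streak, followed at 77.3 (71.7 to 87.1) and Eomes at 64.1 (60.3 to 77.7). Mesp1 (58.0), Gata4 (57.1), Gata6 (54.8), Gsc (50.4) and T (43.3) formed a middle band. Sox7 at 27.5 (0.3 to 47.5) and Sox17 at 7.9 (0 to 35.5) were lowest, and both are SoxF factors of endoderm and endothelium. The ranges of every pair of neighbours in this order overlapped. Foxa2, Gata4, Sox17 and Eomes have more than 1 basic start, which gives them more sequence to be called in.

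Sox17 was the one promoter of the 10 with no peak in either control library without IAA in the reduced lists. At deposited length the first of those libraries had a Sox17 peak and the second had none, while both control IAA and both wild type libraries had one. Its percentiles were 24.5 and 0 with IAA, 0 and 35.5 with wild type CTCF, and 30.2 and 15.8 with mutated CTCF. The control IAA and wild type groups each held a library without a peak, so they overlapped the control without IAA. A window in the Sox17 exons, 3228 bp from the start, was nevertheless called by all 24 libraries.

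**Figure D2:**
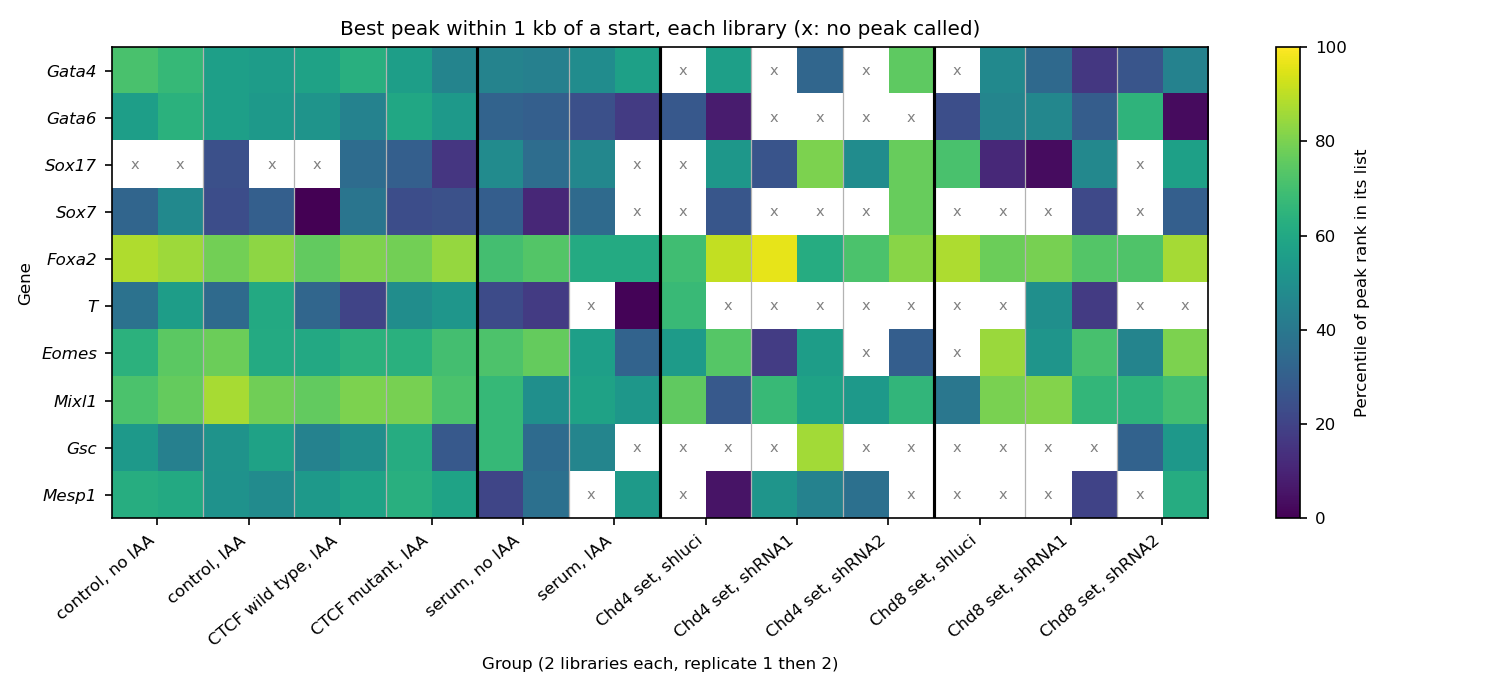
Percentile (color, 0 to 100) of the strongest peak within 1 kb of a start for each gene (rows) in each library (columns, 2 per group); a cross marks no peak, and heavy lines separate sets whose lists were reduced separately. Foxa2 and Mixl1 are filled in all 24 libraries, and most crosses of T, Gsc, Sox7 and Mesp1 lie in the Chd4 and Chd8 sets.

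Base composition gave the promoters another order. Within 500 bases of the outermost start, the ratio of observed to expected CpG was 0.93 for Gsc, 0.81 for Mixl1, 0.77 for Sox7, 0.57 for Foxa2 and 0.41 for Mesp1. The median was 0.66 for the 10 genes and 0.57 for all protein-coding genes. A ratio above 0.6 was found for 8 of the 10, against 47.5% of protein-coding genes. Sox7 thus had one of the higher ratios and one of the weaker peaks, and Foxa2 the reverse.

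IAA in the control line was the comparison for loss of CTCF in serum-free medium. Foxa2, Gata4, Sox7 and Mesp1 ranked lower with IAA at the promoter, with no overlap between the 2 libraries of each group, and Mixl1 ranked higher. Across all genes with a promoter peak, 16.6% were lower and 24.8% higher by the same rule. Foxa2 went from 87.9 and 85.5 to 78.6 and 83.0. Gata4, a zinc finger factor of endoderm and heart, went from 71.1 and 67.0 to 56.6 and 55.4, and Mesp1 from 62.3 and 60.7 to 51.1 and 48.4. Both IAA values lay below both values without IAA in each of these genes. Sox7 went from 32.5 and 47.5 to 23.5 and 30.2, and Mixl1 from 71.7 and 76.4 to 87.1 and 78.3. The strongest Sox7 peak had its summit at -184 and -130 bp from the start without IAA and at -1096 and -276 bp with it. For Mesp1 the summits were at 487 and 487 bp, then at 1072 and 474 bp. With groups of 2, an exact two-sided permutation test cannot give a p below 0.333. None of these rank differences could pass that test, and no other test was applied to them. At 50% of the list length Sox7 had no difference (0.0), since its peak then fell out of the lists.

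IAA in serum gave a partly different set of genes. Foxa2, Gata6, T and Eomes ranked lower and Gata4 higher without overlap, against 18.5% and 16.9% of all genes. Foxa2 went from 70.0 and 73.3 to 61.0 and 61.2. Eomes, the T-box factor of definitive endoderm and cardiac mesoderm, went from 72.2 and 76.3 to 56.6 and 31.7. Its strongest peak had its summit 1172 and 1201 bp downstream of the start without IAA and 328 and 1091 bp with it. T went from 22.9 and 17.2 to 0 and 0.9. In each of these genes both IAA libraries lay below both others. Gata6 went from 31.8 and 30.3 to 24.3 and 17.4, a difference of -10.2 points that became 2.9 when percentiles were taken in the lists at their deposited length. Gata4 went from 44.9 and 43.7 to 48.7 and 56.8, the opposite direction to serum-free medium.

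Foxa2 was the one gene of the 10 with lower promoter ranks under IAA in both media, and no gene was higher in both. Over all genes with a promoter peak, 4.58% were lower and 4.51% higher in both. The deposited fold enrichment of the Foxa2 peak was 9.18 and 8.91 without IAA and 6.47 and 8.41 with it in serum-free medium, and 4.37 and 4.21 against 3.62 and 3.95 in serum. By this measure also neither pair of groups overlapped. With wild type CTCF under IAA the Foxa2 percentiles were 76.1 and 80.6, and with mutated CTCF 78.7 and 84.2. Neither line reached the control libraries without IAA.

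The other genes overlapped between the groups in serum-free medium. Eomes stood at 64.1 and 74.8 without IAA and 77.7 and 61.0 with it, Gsc at 54.1 and 43.7 against 51.2 and 57.6, T at 37.7 and 55.8 against 34.6 and 60.9, and Gata6 at 55.9 and 63.7 against 56.6 and 53.6. Each of them had at least 1 IAA library inside or beyond the range of the libraries without IAA.

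The number of genes with a promoter peak in both serum libraries went from 10 without IAA to 5 with it, while all protein-coding genes went from 63.2% to 63.6%. The 5 genes without a call in both were T and Mesp1, absent from the first IAA library, and Sox17, Sox7 and Gsc, absent from the second. This count depends on the list length. In the deposited lists, which are longer for the IAA libraries, 9 of 10 genes had a peak in both, and without the second IAA library the count was 8.

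Both overexpressing lines were set against the control line given the same IAA treatment. With wild type CTCF, Gata6, T and Gsc ranked lower and Gata4 and Mesp1 higher without overlap, against 29.1% and 11.5% of all genes. Mesp1, a basic helix-loop-helix factor, stood at 53.8 and 58.0 with wild type CTCF and at 62.9 and 58.0 with mutated CTCF, above 51.1 and 48.4 in the control line. With mutated CTCF, Mesp1 was the one gene higher and no gene was lower, against 13.4% and 23.4% of all genes. Gata4 stood at 57.6 and 62.9 with wild type CTCF and at 56.0 and 45.3 with mutated CTCF, against 56.6 and 55.4 in the control line. These comparisons share the control IAA libraries.

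The number of peaks in each neighbourhood was tested over both media with IAA labels exchanged within each medium. Foxa2 had 13 and 13 peaks without IAA and 9 and 9 with it in serum-free medium, and 8 and 9 against 6 and 6 in serum. Mesp1 had 12 and 11 against 10 and 10, and 9 and 8 against 6 and 7. In both genes every IAA library had fewer peaks than every library without IAA in the same medium. The mean difference was -3.25 peaks for Foxa2 and -1.75 for Mesp1, each with p = 0.0556 by the exact two-sided permutation test, the smallest this design can give, and with a Benjamini-Hochberg adjusted p over 21911 protein-coding genes of 1.0. By the same test 3.02% of all genes were lower and 1.1% higher at that smallest p. No gene of the 21911 had an adjusted p of 0.05 or less, nor an unadjusted p under 0.05.

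The other 8 genes had differences between -0.75 and 1.75 peaks. Gata6, a regulator of primitive endoderm, had 10 and 5 peaks against 13 and 10 in serum-free medium, and 3 and 5 against 4 and 3 in serum. Eomes had 21 and 16 against 14 and 17, and 10 and 8 against 13 and 12, so its groups overlapped in the first medium and were higher with IAA, without overlap, in the second. For Foxa2 under IAA, wild type CTCF had 9 and 13 peaks, which overlapped both control groups. Mutated CTCF had 13 and 10, above both control libraries with IAA and overlapping those without. The Foxa2 difference rested on what counts as a call: counting windows covered to at least 50% by peaks, it was 0.25. The Mesp1 difference was 0.0 in the lists at deposited length.

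**Figure D3:**
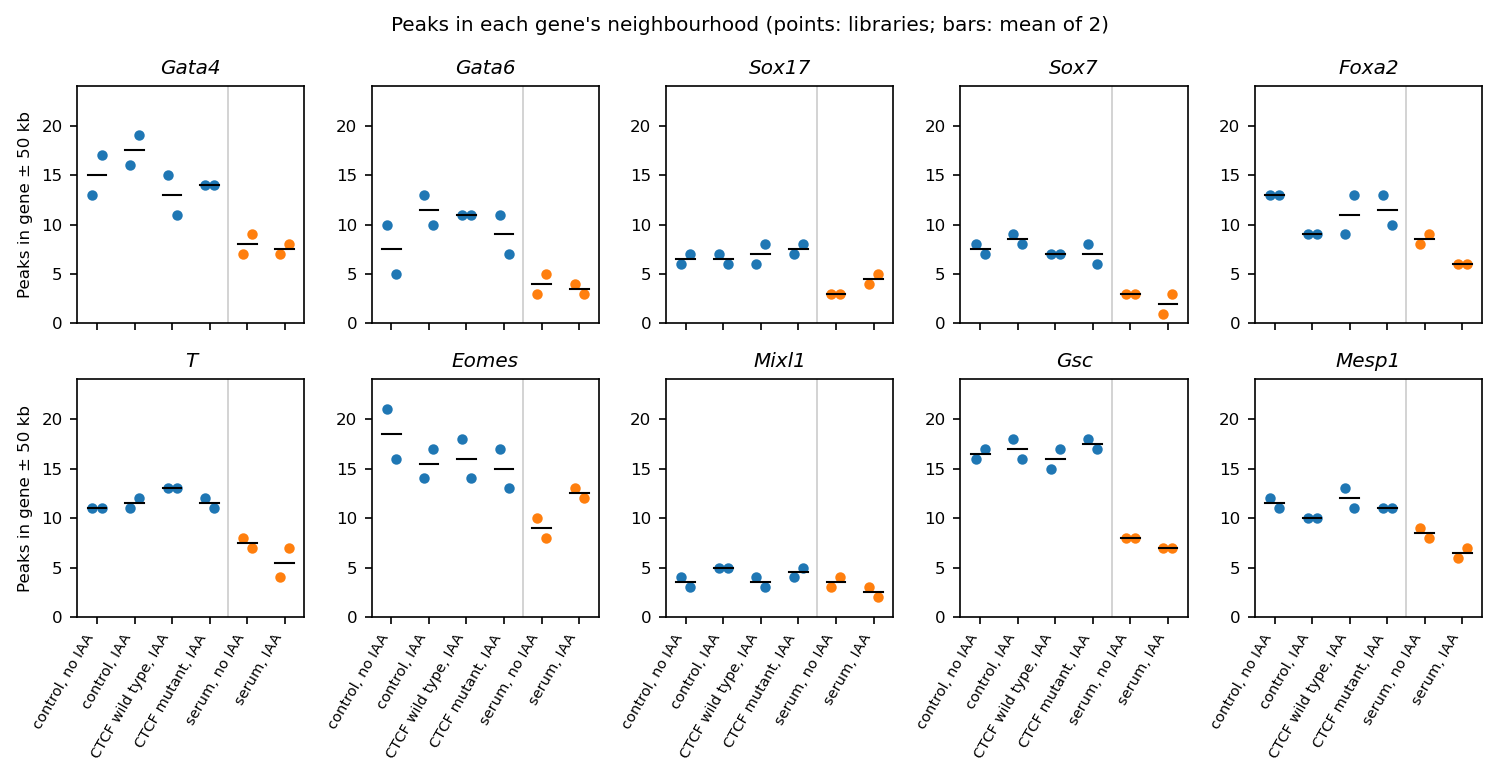
Peaks within each gene body and 50 kb either side (y axis, count) in the control, overexpression and serum groups (x axis), with each library as a point and the mean of 2 as a bar. Foxa2 has 13 peaks in both control libraries without IAA and 9 in both with IAA, and 6 in both serum libraries with IAA.

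The windows near Foxa2 and Mesp1 that changed lay outside their promoters. Near Foxa2 the control line lost windows 13836 and 35275 bp upstream, both between genes and without the CTCF consensus. The farther of them stood at 54.2 and 60.7 without IAA, at 55.6 and 50.4 with wild type CTCF and at 58.8 and 61.6 with mutated CTCF, a pattern like that of the Gsc and T sites. In serum 1 of 2 libraries without IAA called it and none with IAA. The window at the Foxa2 promoter was called by all 24 libraries. Near Mesp1 a wide peak covered windows 5203 and 5724 bp upstream at 26.6 and 42.0 in the control line, and neither IAA library called it. The farther window was also called in serum without IAA, at 32.4 and 35.8, and not with IAA, and again at 26.9 and 26.3 with wild type CTCF. With mutated CTCF 1 library called it.

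Over the 199 windows of the 10 neighbourhoods, shares lost or gained had wide intervals. A window was counted as lost when both libraries of the first group and neither of the second called it, and as gained in the reverse case. In the control line 9 of 128 windows were lost with IAA, 7.03% (95% exact binomial interval 3.27 to 12.9), against 6.6% of all windows. Gained were 8 of 130, 6.15%, against 5.51%. In serum 7 of 69 were lost, 10.1% against 8.61%, and 2 of 52 gained, 3.85% against 8.66%. With wild type CTCF, compared with the control line under IAA, 7 of 130 were lost (5.38% against 4.82%) and 6 of 120 gained (5.0% against 4.65%). With mutated CTCF 3 of 130 were lost (2.31% against 3.63%) and 3 of 122 gained (2.46% against 4.21%). Of the 9 windows lost in the control line, both wild type libraries called 5 and both mutated libraries called 3, against 36.6% and 28.1% of all windows lost there. The Mesp1 windows 5203 and 5724 bp upstream, covered by the same wide peak, are both among the 9 and among the 5. Shares and intervals count such a peak once per window. Every interval, in all 10 comparisons and in both directions, held the share of all windows.

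Over both media, 2 of 59 windows (the Gsc and Mesp1 windows) had a peak in each of the 4 libraries without IAA and in 0 of the 4 with it, against 3.04% of all such windows. In the reverse pattern there was 1 of 51, the T window at 32480 bp, against 0.28%. As given above, 6 of the 12 Chd4 and Chd8 libraries, all without IAA, called that window too. In the same sets the Mesp1 window was called by 1 of 2 Chd4 shluci libraries and by 1 of 2 libraries of each Chd8 group. No Chd4 shRNA library called it.

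**Figure D4:**
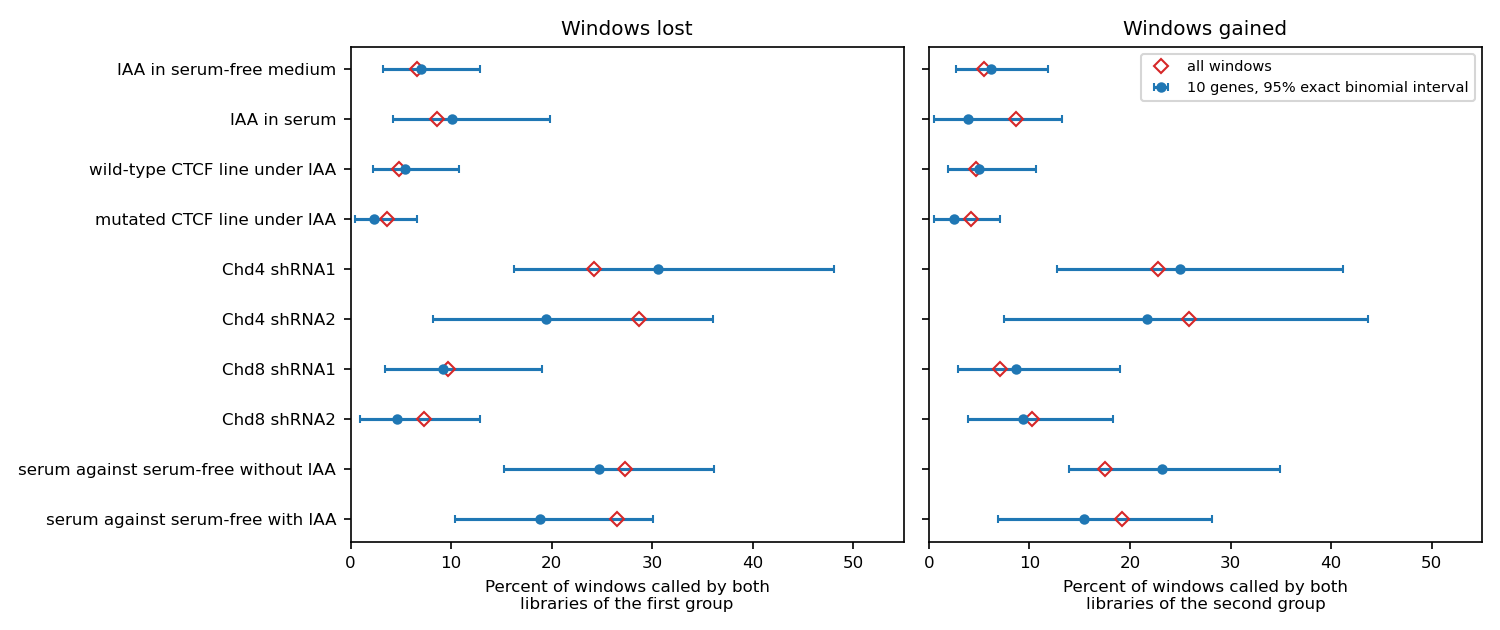
Percent of windows lost (left) and gained (right) in the 10 neighbourhoods, as points with 95% exact binomial intervals that cover counting of windows only, and in all windows, as open diamonds, for the 10 comparisons. Every interval spans its diamond, for example 7.03% against 6.6% of windows lost with IAA in serum-free medium.

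The windows themselves were spread over the neighbourhoods. Eomes had 31, Gsc 28, Gata4 25, Foxa2 22, Gata6 20, T 19, Mesp1 18, Sox17 14, Sox7 13 and Mixl1 9. By place, 22 lay at the genes' own promoters, 8 in their exons, 17 in their introns, 22 at promoters of other genes, 8 in exons and 48 in introns of other genes and 74 between genes. All 24 libraries called 7 of them (3.52%, against 3.72% of all windows), 3 of which lay between genes 20467 to 39990 bp downstream of the Gsc start. The letters AGATAA, found in sites of GATA factors, occurred on either strand in 21.6% of them and 19.55% of all windows. The octamer ATGCAAAT occurred in 2.01% and 4.18%, and the T-box motif AGGTGTGA in 2.01% and 2.65%.

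The Chd4 set compares each hairpin with shluci, the control hairpin. Gata6 was the one promoter with lower ranks in all 4 shRNA libraries than in both shluci libraries, and no gene of the 10 was higher in all 4. It stood at 27.6 and 7.7 with shluci and had no peak in any shRNA library, in the reduced or the deposited lists. All genes gave 21.4% lower and 4.15% higher. With each hairpin taken alone, shRNA1 had Gata6 lower and Mesp1 higher without overlap, against 32.5% and 13.1% of all genes. The shRNA2 libraries had Gata6 and Eomes lower and no gene higher, against 37.3% and 10.8%. Calls were sparse in this set: T and Gsc were called in 1 of the 6 libraries, Gata6 and Sox7 in 2, Gata4 in 3 and Mesp1 in 4, so the Gata6 difference rests on the 2 shluci peaks alone. The shluci libraries disagreed for T (67.7 and 0), Gata4 (0 and 56.5) and Sox17 (0 and 53.1). List length followed the replicate number: before reduction the first shluci, shRNA1 and shRNA2 libraries listed 135583, 140936 and 141742 peaks. The second listed 93091, 91397 and 80619. Once reduced, Gata4 had no peak in any first library and stood at 56.5, 33.1 and 75.3 in the second. The comparisons of this set do not allow for that division, and its part in them was not tested. Beside the calls of the 10 genes, 10 pluripotency genes went from 7 with a promoter peak in both shluci libraries to 6 with shRNA1 and 2 with shRNA2. For 10 neural regulator genes the numbers were 6, 4 and 5, and for all protein-coding genes 48.9%, 39.2% and 32.6%. Strong peaks, taken as those whose -log10 q reached 10, numbered 15501 and 16498 with shluci and 6930 to 8563 with the hairpins. The summed promoter percentile of the 7 stem cell markers was 341.4 to 420.6 with shluci, 189.8 to 245.4 with shRNA1 and 94.2 to 178.5 with shRNA2. That of the 5 fibroblast markers was 4.5 to 145.0, 199.3 to 201.7 and 155.6 to 193.7, with Col1a2 and Twist1 higher and none lower with either hairpin, and Prrx1 and Thy1 at 0 in all 6 libraries. The 5 trophoblast markers summed to 137.6 to 175.4, 15.6 to 23.3 and 154.0 to 187.4. The 4 neural markers summed to 93.8 to 95.7, 78.9 to 126.9 and 117.3 to 128.1, with Pax6 lower with both hairpins and Olig2 higher with shRNA2. What part these differences have in the Gata6 calls was not tested.

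In neighbourhood peaks, no gene of the 10 reached the smallest exact permutation p of the Chd4 set, 0.0667. Sox17 had 7 and 7 peaks with shluci and 9, 13, 14 and 11 with the hairpins, a difference of 4.75 (exact permutation p = 0.133, adjusted 0.404), and all 4 hairpin libraries were above both controls. Gata4 had 10 and 5 against 5, 4, 3 and 5. Over all genes, 18.9% were lower and 4.1% higher at the smallest p. Of 36 windows open in both shluci libraries, 4 had a peak in 0 of the 4 shRNA libraries, against 14.2% of all windows. They included 1 at the Gata4 promoter 894 bp upstream of the start and 1 in an intron 6481 bp downstream of the Foxa2 start. Another lay in an exon of another gene 48706 bp from the Eomes start. The reverse pattern held for 1 of 14, a window 25474 bp downstream of the Sox17 start, against 14% of all windows. By hairpin, 11 of 36 windows were lost with shRNA1 (30.6% against 24.2%) and 7 of 36 with shRNA2 (19.4% against 28.7%). Gained were 10 of 40 with shRNA1 (25% against 22.8%) and 5 of 23 with shRNA2 (21.7% against 25.9%).

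In the Chd8 set no promoter of the 10 was lower, and none higher, in all 4 shRNA libraries, against 6.17% and 3.99% of all genes. T had no peak with shluci or shRNA2 and stood at 49.7 and 17.4 with shRNA1. Gsc had no peak with shluci or shRNA1 and stood at 31.6 and 53.5 with shRNA2. Neither gene was thus called with both hairpins. By hairpin, T was the one promoter higher with shRNA1 and Gsc the one higher with shRNA2, against 10.8% and 15.7% of all genes, and none was lower, against 15.1% and 14.8%. Beside this, the summed percentile of the 7 stem cell markers was 449.4 to 452.9 with shluci, 389.1 to 408.5 with shRNA1 and 400.9 to 510.5 with shRNA2, with Dppa3 at 0 in all 6 libraries. The 5 fibroblast markers summed to 204.5 to 317.7, 287.4 to 288.4 and 291.1 to 306.3, with Twist1 and Thy1 higher with both hairpins and Col1a1 lower with shRNA1. The trophoblast markers summed to 192.5 to 216.5, 219.0 to 255.3 and 155.4 to 250.9, and the neural markers to 66.2 to 237.9, 96.0 to 147.0 and 166.1 to 236.6. The part of these differences in the T and Gsc calls was not tested. The 10 genes' neighbourhood counts gave differences from -3.25 (Gata6) to 3.25 (Foxa2), both with an exact permutation p of 0.2 and an adjusted p of 1.0. Of 48 windows open in the 4 shRNA libraries, 3 had no peak with shluci, against 2.48% of all windows. They lay 617 bp from the Mixl1 start, 4944 bp downstream of the Foxa2 start and at the Mesp1 intron site printed above. The Mixl1 window stood at 81.4 and 32.6 with shRNA1 and at 64.8 and 69.7 with shRNA2. The reverse pattern held for 2 of 65, against 3.43%, in an intron of Gata4 4857 bp from the start and 12295 bp downstream of the Mesp1 start. With shRNA1 6 of 65 windows were lost (9.23% against 9.69%) and 5 of 58 gained (8.62% against 7.04%), and with shRNA2 3 of 65 were lost (4.62% against 7.34%) and 7 of 75 gained (9.33% against 10.2%).

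Serum and serum-free libraries were compared with all 8 lists reduced to the same 59786 peaks. Without IAA, 7 of the 10 promoters ranked higher in serum with no overlap (Gata4, Gata6, Sox17, Sox7, T, Eomes and Gsc) and none ranked lower, against 36.9% and 22.8% of all genes. Sox17 had no peak in either serum-free library and stood at 48.2 and 35.7 in serum. Sox7 likewise had none at this length and stood at 30.0 and 11.2. In lists reduced only within their own set, both serum-free libraries held a Sox7 peak (32.5 and 47.5). Gsc went from 7.7 and 0 to 67.0 and 34.8, and Eomes from 27.8 and 49.4 to 72.2 and 76.3. Gata4 went from 42.0 and 33.8 to 44.9 and 43.7, and Gata6 from 11.3 and 27.0 to 31.8 and 30.3. At 50% of the list length the count of promoters higher in serum was 1 of 10. By deposited fold enrichment, Gata4, Gata6, Sox7, T and Eomes were instead lower in serum without overlap, and so were Foxa2, Mixl1 and Mesp1. Gata4 stood at 8.3 and 7.71 in serum-free medium and at 3.87 and 3.89 in serum. Gsc overlapped by this measure (4.24 and 3.99, then 4.73 and 3.43). Markers of other cell types moved with the promoter ranks of the 10 genes. Of 5 fibroblast markers 4 were higher in serum and none lower, both without and with IAA (Col1a1, Col1a2, Prrx1 and Thy1). Their summed percentile was 131.9 to 153.6 in serum-free medium and 288.7 to 295.8 in serum without IAA, and 104.7 to 209.0 and 301.2 to 311.1 with IAA, and Prrx1 was at 0 in all 4 serum-free libraries. Of 5 trophoblast markers 3 were higher without IAA (Elf5, Cdx2 and Hand1) and none lower, with sums of 55.4 to 58.2 and 177.6 to 235.2. With IAA 2 were higher and 1 lower, with sums of 53.0 to 69.3 and 159.7 to 200.2. The sums of the stem cell markers overlapped between media without IAA (425.2 to 435.4 and 413.8 to 449.2), with members going both ways: Nanog and Esrrb were lower in serum and Pou5f1 and Dppa5a higher. With IAA, Nanog and Esrrb were again lower and none was higher (452.0 to 493.0 and 367.1 to 457.8). Of the 4 neural markers Sox1 was lower and Neurod1 higher in serum, both without IAA (212.8 to 216.2 and 198.4 to 230.4) and with it, where the sums did not overlap (202.3 to 222.9 and 226.2 to 240.6). The part of other cell types in the serum differences was not tested.

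With IAA the count was 2 of 10, Gata4 and Gata6, and none lower, against 34.0% and 24.7% of all genes. Gata4 stood at 12.7 and 10.4 in serum-free medium and at 48.7 and 56.8 in serum. By deposited fold enrichment Gata4 was lower in serum, at 4.21 and 4.62 against 5.38 and 5.7. Gata6 was lower as well, at 3.17 and 3.39 against 4.58 and 5.05. Sox17, Sox7 and Gsc each had 1 serum IAA library without a peak, and without the second of those libraries the count was 6. At 50% of the list length it was 0. Foxa2 and Mixl1, the highest of the 10 by median in the control and overexpression libraries, overlapped between media both without and with IAA. The serum libraries come from a line with no overexpression construct in its labels and from shorter lists, so medium, line and set cannot be told apart.

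**Figure D5:**
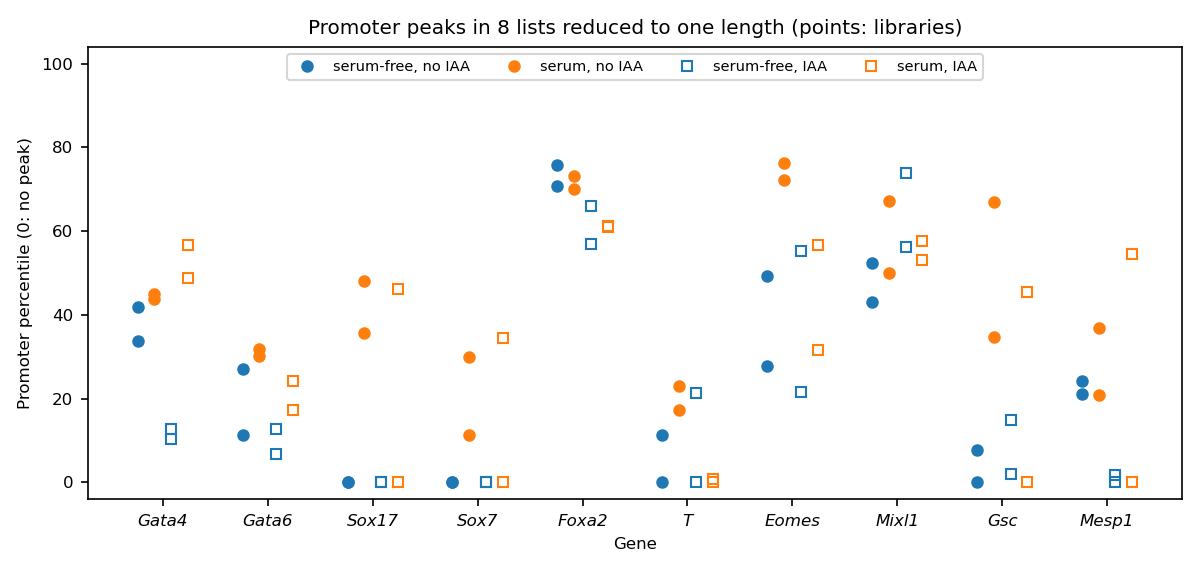
Promoter percentile (y axis, 0 for no peak) of each gene (x axis) in serum-free (blue) and serum (orange) libraries without IAA (filled circles) and with IAA (open squares), in lists of 59786 peaks. Sox17 and Sox7 are at 0 in all 4 serum-free libraries, and Foxa2 lies between 57.0 and 75.8 in all 8.

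Without IAA, 18 of 73 windows of the serum-free libraries were lost in serum (24.7% against 27.3% of all windows) and 16 of 69 gained (23.2% against 17.5%). With IAA 13 of 69 were lost (18.8% against 26.5%) and 8 of 52 gained (15.4% against 19.2%). Windows open in all 4 serum libraries and absent from the serum-free ones were 5 of 45, against 9.92% of all windows, and the reverse pattern held for 7 of 59, against 18.2%. The first included the Eomes promoter 424 bp upstream of the start and a window 1076 bp upstream of Sox7. It also included windows 2215 bp downstream of the Gsc start and 6481 bp downstream of the Foxa2 start. The second included neighbouring windows 1803 and 2307 bp upstream of Gsc, in an exon of Gm10000. A further Gsc window, 24090 bp downstream of the start, was also called in all 4 serum-free and in no serum library. It is named here after its values were seen.

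The wider network was followed with 40 further genes of the same pathways, listed by role. In the control line 9 were lower and 6 higher with IAA without overlap, and in serum 8 and 4. Col4a1 and Col4a2 had the same values in all 24 libraries, so both of them count the same peak wherever they appear, as among the 8. All genes with a promoter peak gave 16.6% lower and 24.8% higher in the control line, and 18.5% and 16.9% in serum. In both media Nodal, the ligand that induces mesendoderm, and Lama1, a laminin of the primitive endoderm basement membrane, were lower, and Lefty2, an inhibitor of Nodal, was higher. Nodal went from 67.1 and 66.9 to 57.7 and 66.5 in serum-free medium and from 73.3 and 48.3 to 18.2 and 20.3 in serum. Lefty2 went from 52.8 and 0 to 68.6 and 59.0, and from 0 and 0 to 40.1 and 58.1. That is 2 lower and 1 higher of 40, against the 4.58% and 4.51% of all genes given above.

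In the Chd4 set Gdf3 and Acvr2b were lower in all 4 hairpin libraries, and Gata5 was higher, that is 2 and 1 of 40 against 21.4% and 4.15% of all genes. Acvr2b, an activin receptor, stood at 95.2 and 92.2 with shluci and at 41.9, 14.1, 51.3 and 47.6 with the hairpins. In the Chd8 set Fgf4, Foxa3 and Lamb1 were lower in all 4 and Pdgfra was higher, 3 and 1 of 40 against 6.17% and 3.99% of all genes. Between media without IAA, 19 of the 40 were higher in serum (Col4a1 and Col4a2 among them) and 7 lower, and with IAA 18 and 7. All genes gave 36.9% higher and 22.8% lower without IAA, and 34.0% and 24.7% with it. Cdx2, a caudal homeobox factor of trophoblast and posterior mesoderm that is also on the list of trophoblast markers, stood at 0 and 4.9 in serum-free medium and at 75.6 and 73.5 in serum without IAA.

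For the 8 genes whose promoter was called in some and not all libraries, the protein-coding genes with the nearest promoter percentiles over the 12 group means were sought. Taking only the nearest neighbour of each gene, the closest were Alkal2 to Mesp1, with a mean absolute difference of 4.11 points, and Med13l to Gata6 with 5.18. Next came Abcc1 to Eomes with 6.26 and Rab35 to T with 6.27. None of the named neighbours is one of the 10 genes.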

How the data were processed

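The deposited files are peak lists in narrowPeak form, 1 per library. Trim Galore, Bowtie2, MACS2, deepTools and the mm10 build are named in the submitters' processing notes, without versions or settings. The authors' deposited lists give each peak a score made by the peak caller. As deposited, they also give a fold enrichment over background, a ratio that the caller computed for each peak. Significance is given as -log10 p and as -log10 q, both computed by the authors before they were deposited. Read depth is not given in the sources used here, and no read counts were recovered. Every peak lay inside the GRCm38 chromosome lengths.

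Peaks were ranked by -log10 p, and lists were reduced to the shortest of each set (for serum against serum-free, to the shortest of all 8). Windows of 501 bp were placed around summits without overlap. Group differences at a promoter were described by whether the 2 libraries of each group overlapped. Neighbourhood peak counts were tested with exact two-sided permutation over all 21911 protein-coding genes with Benjamini-Hochberg adjustment, a step tested on simulated data. Python 3.11.15, numpy 2.4.6, scipy 1.17.1 and pysam 0.24.0 were used, and sequences came from the GRCm38 genome of RefSeq. All 10 genes were named. Windows were named when every library on 1 side and none on the other called them, the strongest 5 per direction (3 in each Chd set), along with CTCF consensus windows lost with IAA. The genes and lists were chosen with earlier results of these data known. Alternatives were shorter, unreduced and stricter lists, other distances and overlaps, left-out libraries and a replicate block. Intervals cover counting of windows only.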

Additional observations from a re-analysis of the deposited data

Results flagged for a closer look

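The Gata4 promoter went in opposite directions with IAA in the 2 media. The mean percentile differed by -13.1 points with IAA in serum-free medium, from 71.1 and 67.0 to 56.6 and 55.4, and by 8.5 points in serum, from 44.9 and 43.7 to 48.7 and 56.8. Every library moved that way within its medium, and the difference between the media was not tested. In lists at 50% of the length, the serum groups overlapped.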

How the results depend on the processing

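The lists hold calls without read depth, so a weak promoter can enter or leave a list with its length. Over the members' shares and counts, 219 alternatives stayed close to the reported value and 79 moved. With lists at 50% of the shortest, genes with a promoter peak in both libraries numbered 5 with wild type CTCF, 5 with mutated CTCF, 2 with Chd4 shluci, 2 with Chd4 shRNA1, 1, 3 and 2 with Chd8 shluci, shRNA1 and shRNA2, and 2 and 2 in serum without and with IAA; genes higher in serum numbered 1 without IAA and 0 with it (an alternative chosen after seeing the data). Windows gained were 7.79% with mutated CTCF and 50.0% with Chd4 shRNA1. At deposited length, windows lost were 1.52% with wild type CTCF; serum against serum-free lost 36.7% and gained 1.43% without IAA, and lost 33.3% and gained 5.56% with IAA; 9 genes had a promoter peak in both serum IAA libraries. At that length Gata6 in serum reversed from -10.2 to 2.9 points.

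With only peaks of -log10 q of at least 10, gained windows were 2.44% with IAA in serum-free medium, lost windows 1.22% with wild type CTCF, and mutated CTCF lost 0.0% and gained 8.33%. Chd4 shRNA1 lost 70.0% and gained 100%, shRNA2 lost 80.0% and gained 0.0%, both Chd8 hairpins gained 0.0%, and serum against serum-free lost 56.4% and 52.4% and gained 0.0% and 0.0% without and with IAA. No gene (0) had a promoter peak in both libraries of any Chd4 or Chd8 group, and 2 had one in each serum group. With at least 50% of a window covered, wild type CTCF lost 12.6% and gained 0.0%, and mutated CTCF lost 7.37%. By that rule Chd4 shRNA1 lost 81.8% and gained 0.0%, and Chd4 shRNA2 lost 45.5% and gained 100%. Chd8 shRNA1 lost 29.4% and gained 0.0%, Chd8 shRNA2 lost 0.0%, and serum against serum-free with IAA lost 32.2%. The Foxa2 difference, -3.25 when peaks were counted, was 0.25 when windows so covered were counted. With 20 kb either side, mutated CTCF gained 0.0% and serum against serum-free without IAA lost 12.2%. The shares of 100% rest on very few windows under these settings; the cause of the other moves was not tested.

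Leaving out each library asks fewer libraries to concur, by construction. Gained windows with IAA ranged from 8.51% to 12.3% in serum-free medium and from 7.69% to 21.6% in serum, where lost windows ranged from 14.8% to 29.0%. Wild type CTCF lost 7.8% to 15.4% and gained 7.3% to 13.3%, and mutated CTCF lost 4.96% to 9.23% and gained 4.1% to 9.02%. Chd4 shRNA2 lost 25% to 58.3%, Chd8 shRNA1 lost 18.5% to 21.5% and gained 12.1% to 19.0%, Chd8 shRNA2 lost 9.23% to 15.4% and gained 16.1% to 22.7%, and serum against serum-free with IAA lost 25.9% to 31.9%. Promoter counts ranged from 5 to 8 with Chd4 shluci, 4 to 6 with Chd4 shRNA2 and 7 to 8 in serum with IAA, and genes higher in serum with IAA from 3 to 6.

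With a replicate block, which exchanges labels only between same-numbered libraries, the differences of -3.25 peaks for Foxa2 and -1.75 for Mesp1 had an exact permutation p of 0.125 each, the smallest this block can give. Deviations of same-numbered libraries were close to uncorrelated over windows (correlations from -0.0893 to 0.0392). That does not show whether same-numbered libraries were cultured or processed together. In the Chd4 set, list length followed the replicate number, as given above.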
